A study of Mus musculus with 16 samples.

Results

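Lipogenic genes code for the enzymes that make fatty acids from citrate and then elongate, desaturate and esterify them, together with the factors that switch these enzymes on. They were chosen by symbol from a list of 10 (Scd1, Scd2, Fasn, Acaca, Acly, Elovl6, Srebf1, Me1, Thrsp and Dgat2). Of these, 8 were among the 36829 features of the files, and all 8 passed the filter on low values (a 16-mouse mean of 0.5 RPKM or more). No row carried the symbol of Me1, the cytosolic malic enzyme, or of Dgat2, an acyltransferase that closes triglyceride synthesis, so neither was analysed here (3887 features carry the symbol Rnf135 and cannot be told apart by name). RNA was sequenced from the cortical bone of the femur of 16 female C57Bl/6 mice (C57Bl/6J in the study's methods) aged 11 weeks, with the bone ends cut off and the marrow flushed out. In 8 mice (HLU) the hindlimbs had been unloaded for 7 days, and 8 control mice (Control) bore weight normally. The tail of an unloaded mouse was taped to a harness under isoflurane so that the hindlimbs hung clear of the cage. The labels name no genotype or drug, and each mouse gave 1 library. Values are RPKM (reads scaled to the length of the gene in kilobases and to the size of the library), so levels of different genes can be set side by side per length.

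In the cytosol, Acly splits citrate into acetyl-CoA, Acaca carboxylates it to malonyl-CoA, Fasn builds palmitate, Elovl6 lengthens palmitate to stearate, and the stearoyl-CoA desaturases Scd1 and Scd2 place a double bond into the product. Srebf1 codes for SREBP1, a membrane-bound transcription factor that is released by cleavage and switches on this pathway, and Thrsp codes for Spot14, a small nuclear and cytosolic protein that rises with lipogenesis in liver and fat. White adipocytes express the whole pathway strongly, and adipocytes lie in the marrow and at the surfaces of bone.

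The 16 libraries had been scaled to between 7067512 and 21363584 reads, and 3 reads on a gene of 1 kilobase corresponded to 0.140 to 0.424 RPKM. The lipogenic genes were measured on between 64 reads (Srebf1 in Control 2) and 24368 reads (Scd1 in HLU 6). Cells other than bone cells were present: granulocyte markers summed to a median of 30042 RPKM in Control and 25082 RPKM in HLU, against 316 and 511 RPKM for 6 osteocyte markers. Of 14 adipocyte markers 11 were listed, including Adipoq at 54.0 ± 14.6 RPKM in Control and 54.1 ± 13.9 RPKM in HLU (SD, n = 8 each), and none of the 11 was at 0 in any library. None of 10 skeletal muscle markers was listed. In bulk RNA, fewer cells of a type and less RNA per cell cannot be told apart. Libraries were run 8 to a lane, but which mice shared a lane is not given in the sources used here, so lane and condition cannot be told apart.

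The promoters of Fasn and Acly are shown because the transcripts behaved differently from mouse to mouse, Fasn ranging 9.95-fold over the 16 mice and Acly 1.64-fold. Each run is the 250 bases before a start site, read 5′ to 3′ on the gene's strand from RefSeq (build GRCm38.p6), with motif matches in capitals: Fasn at chr11:120824548-120824797, minus strand, and Acly at chr11:100528001-100528250, minus strand. No exon of GENCODE M21 on the same strand covers either window.
Fasn: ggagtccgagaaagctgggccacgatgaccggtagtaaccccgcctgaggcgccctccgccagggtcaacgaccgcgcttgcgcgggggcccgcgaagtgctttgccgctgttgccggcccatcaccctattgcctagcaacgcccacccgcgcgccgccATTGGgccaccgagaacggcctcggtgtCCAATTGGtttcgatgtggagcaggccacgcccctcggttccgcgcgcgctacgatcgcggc
Acly: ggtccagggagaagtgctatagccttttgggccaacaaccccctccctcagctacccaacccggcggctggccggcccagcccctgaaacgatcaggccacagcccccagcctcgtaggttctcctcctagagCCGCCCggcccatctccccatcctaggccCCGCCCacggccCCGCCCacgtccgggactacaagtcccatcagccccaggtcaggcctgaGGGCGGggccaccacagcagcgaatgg

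The Fasn window held 3 matches to the NF-Y box CCAAT (or ATTGG on the other strand), the first bases of which lay at -90, -62 and -59 from the start, the last pair overlapping. The Acly window held 4 matches to the GC box GGGCGG (or CCGCCC), at -117, -88, -76 and -27. Neither window held the SREBP element TCACNCCAC or the E-box CACGTG on either strand, which says only that these letters are not there. Of 32851 such windows over all genes, 33.8% held CCAAT, 32.7% GGGCGG, 6.02% CACGTG and 1.05% TCACNCCAC. The window before Thrsp, which overlaps an annotated exon of the gene, held 2 CCAAT matches, at -79 and -52. The windows before Acaca and Elovl6 held none of these motifs, and that of Elovl6 also overlaps an annotated exon of its gene. For each of these genes 1 window was searched, so any other start site is not covered. Those before Srebf1 held CCAAT at start sites 1 and 3 and GC boxes at start sites 2 and 3. A relation between motifs and the spread between mice was not tested. The promoters of Scd1, Scd2 and Dgat2 were not matched.

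The first question was whether the lipogenic transcripts differed between unloaded and weightbearing bone. Scd1, the main stearoyl-CoA desaturase of fat and liver, was about 2 times as abundant in HLU as in Control, while its neighbour Scd2 was at the same level in both groups. Thrsp and Fasn were higher in HLU on average, by less than the spread between mice. Acaca, Acly, Elovl6 and Srebf1 had fold changes close to 1. No gene of the pathway passed the adjusted threshold, and neither did any other feature.

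Scd1 was also the lipogenic transcript with the highest level. Its lowest, median and highest values were 33.6, 52.3 and 134 RPKM in Control, and 34.6, 125 and 236 RPKM in HLU. The groups overlapped: HLU 3 was as low as the lowest controls, and every control except Control 7 lay within the HLU range. Of the 8 HLU mice, 7 exceeded the median of Control and 4 (HLU 4, 5, 6 and 7) were above every control. Means were 67.3 ± 33.4 RPKM in Control and 137 ± 74.1 RPKM in HLU (SD, n = 8 each), a ratio of 2.03. On the log2(RPKM + 0.1) scale the difference was 0.92 ± 0.37 (SE), with a 95% interval from 0.13 to 1.71. The unadjusted p was 0.0254 with limma and 0.0426 when every split of the mice into 8 and 8 was enumerated (exact permutation, two-sided), and the adjusted p was 0.744 (limma, Benjamini-Hochberg over 16973 features). The study itself picked Scd1 out from these mice, so its difference is not independent evidence. Without Control 7, HLU 4, HLU 6 or HLU 7 in turn the limma difference was 0.77 to 0.81 and its unadjusted p 0.0523 to 0.0553.

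**Figure D1:**
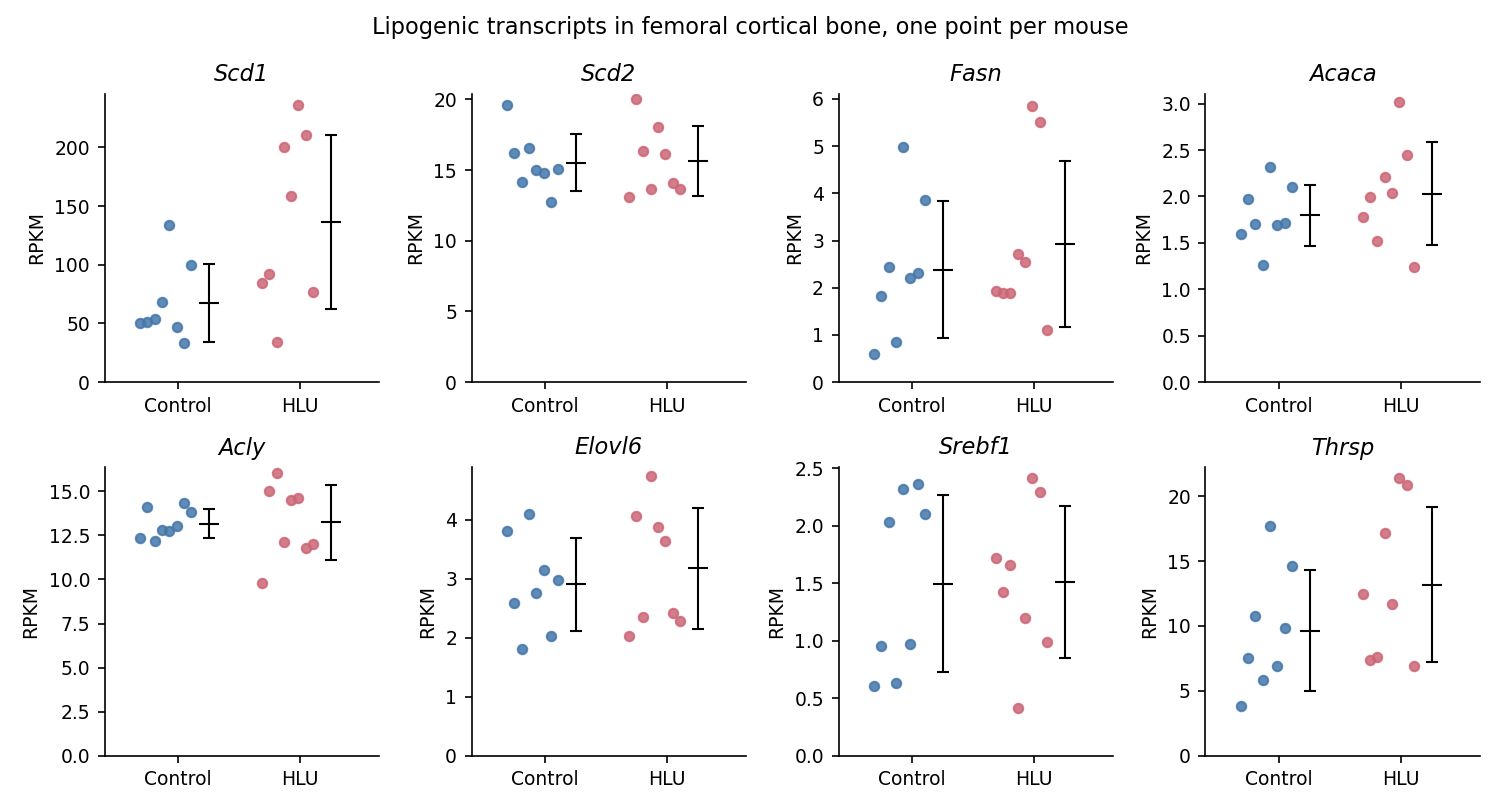
RPKM of the 8 lipogenic transcripts in each of 16 mice (points, in order of mouse number), with the mean and SD of each group of 8 at the right of its points; each panel has its own axis, starting at 0. In Scd1, 4 HLU mice lie above every control, at 158 to 236 RPKM, while the groups overlap for every transcript and Acly spreads wider in HLU than in Control.

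Scd2, the desaturase isoform that is widespread outside liver, had values of 12.8, 15.1 and 19.6 RPKM in Control and 13.1, 15.1 and 20.1 RPKM in HLU (lowest, median, highest). The difference was 0.00 on the log2 scale, with an interval from -0.23 to 0.24, so a change the size of that of Scd1 lay outside it. The ratio of Scd1 to Scd2 within a library does not depend on how libraries are scaled. Its median was 3.48 in Control (2.55 to 8.93) and 7.63 in HLU (2.11 to 14.9). Again 7 of 8 HLU mice were above the control median, and HLU 4, 6 and 7 were above every control. The log2 ratio differed by 0.91 (p = 0.0496, exact permutation test, two-sided; 0.0927 after adjustment over the ratios of Scd1 to each of 7 genes), and it lost the threshold in 12 of 16 repeats that left out 1 mouse, where p reached 0.0932 in the exact permutation test.

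Against Fasn, Srebf1 and Thrsp the log2 ratio of Scd1 was higher by 0.57, 0.87 and 0.46 in HLU (exact permutation p of 0.147, 0.124 and 0.135). Against Acaca and Elovl6 it was higher by 0.77 and 0.81 (exact permutation p of 0.0280 and 0.0463), and against Acly by 0.92 (exact permutation p = 0.0530). All 7 adjusted values were at or above 0.0927. The Scd1, Scd2, Scd3 and Scd4 genes lie side by side on chromosome 19, with no other protein-coding gene among them. In the GENCODE M21 transcripts, 145 of 4888 stretches of 50 bases in Scd1 (2.97%) also occurred in Scd2, and reads from these stretches cannot be assigned to 1 copy. Scd3, a skin isoform, reached at most 0.0762 RPKM (7 reads) and was at 0 in 7 libraries. Scd4, the heart isoform, reached at most 0.299 RPKM (21 reads).

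**Figure D2:**
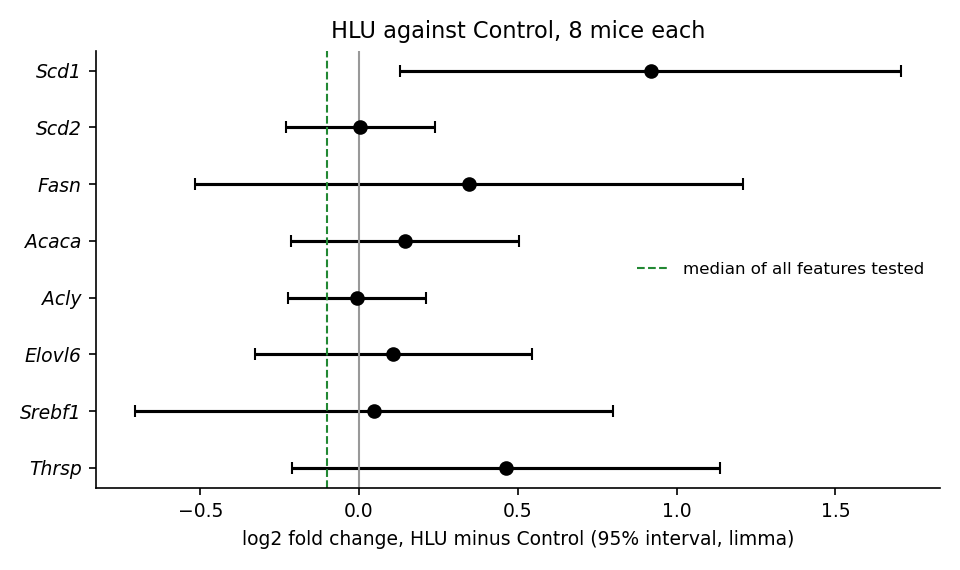
Log2 fold change of each lipogenic transcript, HLU minus Control, on the log2(RPKM + 0.1) scale with its 95% interval from limma (8 mice per group); the dashed line is the median of all 16973 features, -0.10. The interval leaves out 0 for Scd1 alone, and the intervals of Scd2 and Acly are the narrowest.

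Among the enzymes that make the saturated chain, Fasn had values of 0.588, 2.26 and 4.98 RPKM in Control and 1.11, 2.24 and 5.85 RPKM in HLU (lowest, median, highest), so the medians nearly coincided. The 2 highest HLU mice, HLU 6 and HLU 7, were those with the most Scd1. The log2 difference was 0.35, with an interval from -0.52 to 1.21 (exact permutation p = 0.444). Acaca had values of 1.26, 1.71 and 2.32 RPKM in Control and 1.24, 2.01 and 3.02 RPKM in HLU. Its difference was 0.14, from -0.22 to 0.50, and HLU 6 and HLU 7 were again the highest. Elovl6 had values of 1.81, 2.87 and 4.11 RPKM in Control and 2.03, 3.02 and 4.75 RPKM in HLU. Its difference was 0.11, from -0.33 to 0.54, and here the highest mouse was HLU 4.

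Acly, the step that links citrate to lipogenesis, had almost the same mean in both groups, 13.2 ± 0.820 RPKM in Control and 13.2 ± 2.12 RPKM in HLU (SD, n = 8 each). The log2 difference was -0.01, from -0.22 to 0.21. All 8 HLU mice lay outside the control range of 12.2 to 14.3 RPKM, 4 above it (HLU 2, 3, 5 and 6) and 4 below it (HLU 1, 4, 7 and 8). The SD of the log2 value was 0.09 in Control and 0.24 in HLU. This spread was picked out after the values had been seen and was not tested.

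For both regulators the groups overlapped. Srebf1 ranged from 0.608 to 2.37 RPKM in Control and from 0.418 to 2.41 RPKM in HLU. Its log2 difference was 0.05, from -0.71 to 0.80. Control mice fell into 4 near 0.608 to 0.970 RPKM and 4 at 2.03 RPKM or above. HLU 4, among the highest mice for Scd1, had the lowest Srebf1 of all. Thrsp had values of 3.85, 8.69 and 17.7 RPKM in Control and 6.90, 12.1 and 21.4 RPKM in HLU. Its difference was 0.46, from -0.21 to 1.14 (p = 0.198 by exact permutation). Among the HLU mice, 5 of 8 exceeded the median of Control. The exons of Srebf1 overlap Rai1 and those of Elovl6 overlap Gm35986, both on the opposite strand, and whether counting used strand is not given in the sources used here.

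Of the 8 genes, 1 (Scd1) passed an unadjusted p under 0.05 with a change of at least 1.2-fold, in the higher direction, where 1.11% of all 16973 features did so (4.76% in the lower direction). At the adjusted threshold (p under 0.1) limma called 0 features, with 1049 at an unadjusted p under 0.05. Log2 differences were above 0 for 7 of the 8, with a median of 0.13, against -0.10 for all features. The sign of Acly turned to 0.06 to 0.12 under each of 3 other scalings, while the other 7 genes kept theirs. Those scalings moved the share of calls that were higher in HLU from 18.9% to between 30.7% and 55.8%.

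The order of the median levels, in RPKM and thus per length, was the same in both groups: Scd1, Scd2, Acly, Thrsp, Elovl6, Fasn, Acaca and Srebf1. Scd1 exceeded Scd2 in all 16 mice, with no overlap of the ranges within a group. Further down, neighbours overlapped in both groups, apart from Thrsp and Elovl6 in HLU. Acly exceeded Thrsp in 6 of 8 control mice and in 4 of 8 HLU mice, and Elovl6 exceeded Fasn in 4 and 6.

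The second question was how the lipogenic transcripts varied among mice of the same group. The spread was graded, from Fasn as the most variable to Acly as the steadiest. The SD of the log2 value within groups was 0.81 for Scd1, 0.88 for Fasn, 0.75 for Srebf1 and 0.69 for Thrsp, more than in 77.9% to 86.8% of all features tested. It was 0.20 for Scd2 and 0.18 for Acly, less than in most features (only 7.59% and 4.82% had a lower one), with Elovl6 at 0.42 and Acaca at 0.32. The median over all features was 0.43.

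With group means removed, Fasn and Thrsp followed each other most closely over the 16 mice. Pearson's r was 0.93 (permutation p = 1e-05, the smallest that 100000 permutations give; adjusted p = 0.00028 over 28 pairs), Spearman's rho was 0.93, and r was 0.89 without the 2 mice farthest from the median. It was 0.96 in Control alone and 0.90 in HLU alone. Mice rich in Fasn were also rich in Acaca (r = 0.84, rho = 0.82, adjusted p = 0.0014, permutation test), and Acaca and Thrsp gave r = 0.79 (rho = 0.83, adjusted p = 0.00373, permutation test). These relations stood at 0.90 and 0.75 without 2 mice.

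Scd1 followed Acaca (r = 0.72, rho = 0.79, adjusted permutation p = 0.0227) and Thrsp (r = 0.72, rho = 0.73, adjusted permutation p = 0.0156), and both were 0.67 without 2 mice. Scd1 and Fasn gave r = 0.60 (rho = 0.61, permutation p = 0.0130, adjusted 0.0519). In HLU mice alone, r of Scd1 was 0.84 with Thrsp, 0.82 with Acaca and 0.75 with Fasn. In Control alone it was 0.59, 0.51 and 0.49 (exact permutation p of 0.123, 0.196 and 0.210). The difference between the groups was not tested.

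Srebf1 went with Fasn (r = 0.69, rho = 0.74, adjusted permutation p = 0.0247; 0.58 without 2 mice) but not detectably with Scd1 (r = 0.08, rho = 0.17, permutation p = 0.770). With Elovl6 it had r = -0.61 (rho = -0.54, permutation p = 0.0155, adjusted 0.0541). In Control alone, Srebf1 and Fasn gave r = 0.87, and in HLU alone 0.44 (exact permutation p of 0.00114 and 0.271). No relation was detected between Scd2 and Scd1 (r = -0.01, rho = 0.13, permutation p = 0.962). Over the 16 mice, no pair with Scd2 passed the adjusted threshold. Its highest r were with Elovl6 (r = 0.61, rho = 0.61, adjusted permutation p = 0.0601) and Acly (r = 0.50, rho = 0.59, adjusted permutation p = 0.175), and the latter was -0.43 in Control alone and 0.83 in HLU alone. In all, 19 of 28 pairs had r above 0 and 6 passed an adjusted p under 0.05.

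**Figure D3:**
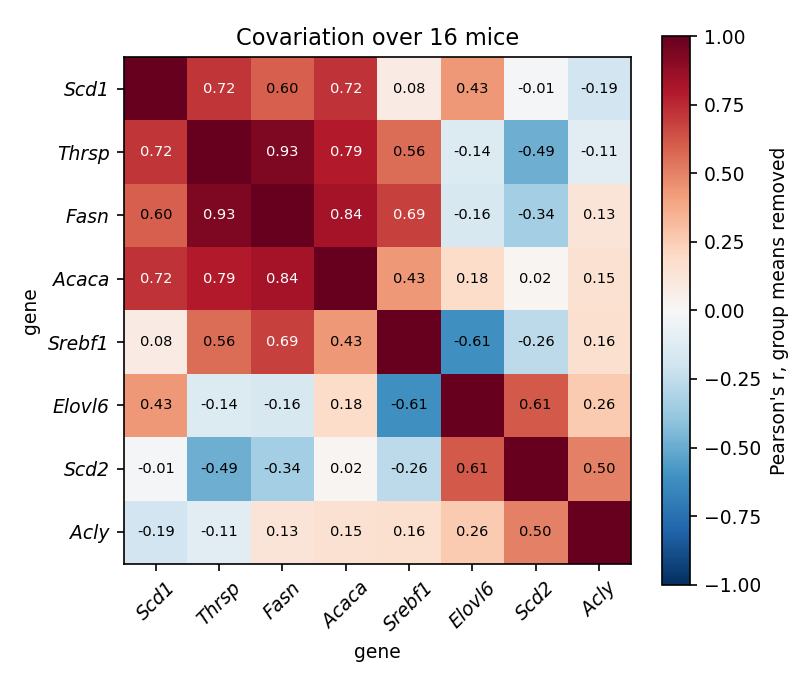
Pearson's r between the log2(RPKM + 0.1) values of each pair of lipogenic transcripts over 16 mice, with group means removed (red positive, blue negative). Scd1, Thrsp, Fasn and Acaca form a block with r of 0.60 to 0.93, and Scd2, Acly and Elovl6 have r between -0.49 and 0.43 with the genes of that block.

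The adipocyte markers moved with Thrsp, Fasn, Acaca and Scd1. A score was taken as the mean, over the 9 markers that passed the filter, of log2 values centred on each gene's mean. The values were not scaled to a common spread. Markers that varied more between mice, such as Retn (3.12 ± 2.54 RPKM in Control), therefore weighed more than Adipoq (54.0 ± 14.6 RPKM in Control). Relations with single markers were not tested. With group means removed, r with this score was 0.90 for Thrsp (rho 0.88), 0.89 for Fasn (rho 0.87), 0.84 for Acaca (rho 0.84) and 0.76 for Scd1 (rho 0.68), with adjusted permutation p of 0.002, 0.00213, 0.002 and 0.0120 over 80 relations. Without 2 mice it was 0.88, 0.92, 0.81 and 0.63. Srebf1 gave r = 0.64 (rho 0.71, adjusted permutation p = 0.0963), while Scd2, Acly and Elovl6 gave -0.22, -0.04 and -0.08.

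Between the groups, 8 of the 9 adipocyte markers had log2 differences above 0, with a median of 0.34 against -0.10 for all features. Where 1.11% of all features were called higher, 1 of the 9 was. That was Fabp4, a fatty acid carrier also found in endothelium and macrophages, at 467 ± 98.0 RPKM in Control and 587 ± 98.1 RPKM in HLU (log2 difference 0.34, unadjusted p = 0.0375, exact permutation p = 0.0329). Adipoq had a difference of 0.01. The summed markers ranged from 430 to 815 RPKM in Control and from 512 to 861 RPKM in HLU. The score was higher in HLU by 0.35 (exact permutation p = 0.210), with 6 of 8 HLU mice above the control median. With the score as a covariate in limma, the difference of Scd1 was 0.52 (unadjusted p = 0.0724) and none of the 8 genes was called, where 0.837% of features were called higher. The values of Thrsp, Fasn, Acaca and Srebf1 were then 0.06, -0.17, -0.03 and -0.27. With the score removed from both genes of a pair, r fell from 0.93 to 0.65 for Fasn and Thrsp, from 0.84 to 0.34 for Fasn and Acaca, and from 0.79 to 0.13 for Acaca and Thrsp. For Scd1 it became 0.23 with Acaca, 0.12 with Thrsp and -0.26 with Fasn, and for Srebf1 and Fasn 0.33. None of the 6 pairs then passed the adjusted threshold.

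Some blood cell scores and library measures had negative r with Thrsp, Fasn and Scd1. Of the relations with blood cell scores, that of Thrsp with granulocytes alone passed the adjusted threshold. Thrsp had r = -0.75 with the granulocyte score (rho -0.78, adjusted permutation p = 0.0120, -0.71 without 2 mice). It had r = -0.80 with the percent of a library's reads on listed features (rho -0.87, adjusted permutation p = 0.0062, -0.72 without 2 mice), and Fasn had -0.74 (rho -0.86, adjusted permutation p = 0.0176, -0.61 without 2 mice). That percent was 88.8 ± 4.28 in Control and 85.0 ± 5.29 in HLU (SD, n = 8 each, exact permutation p = 0.133). Scd1 had r = -0.69 with the granulocyte score and -0.60 with the erythroid score (rho -0.70 and -0.53, adjusted permutation p of 0.0806 and 0.109). The erythroid score was lower in HLU by 0.58 (exact permutation p = 0.0657), and 3 of 11 erythroid markers were called lower, against 4.76% of all features. With erythroid and granulocyte scores as covariates, limma gave Scd1 0.64 (unadjusted p = 0.0817), Fasn 0.77, Srebf1 0.71 and Thrsp 0.65. The last 3 were then called at unadjusted p of 0.0446, 0.0312 and 0.0116, where 7.63% of features were called higher. Fasn had r = 0.70 with 3 further muscle genes (rho 0.67, adjusted permutation p = 0.0339; 0.58 without 2 mice), whose summed level ranged from 3.46 to 198 RPKM. The part of these measures in the group differences was not tested beyond these fits.

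The features whose values most resembled those of Scd1 over the 16 mice, group means removed, were Ces1d (r = 0.92), Myof (0.89), Pam (0.88), Ccdc3 (0.88), Fam26e (0.86), Retn (0.86), Deptor (0.86), Gm17194 (0.85), Tmem45b (0.85) and Cc2d2a (0.85). They are the first 10 of 11396 features with a unique symbol and a mean of at least 2 RPKM, and the r values are a description. Retn, which codes for resistin, is also one of the adipocyte markers. Ces1d codes for a carboxylesterase and stood at 5.21 ± 2.90 RPKM in Control and 7.07 ± 3.58 RPKM in HLU (SD, n = 8 each). Of these 10, Cc2d2a had the lowest unadjusted p between the groups (log2 difference 0.44, unadjusted p = 0.0224, limma), and Myof was level (-0.01). Thrsp came in place 240 of this ranking, Fasn 748, Elovl6 1649, Scd2 4614 and Acly 6074. Acaca (r = 0.72) and Srebf1 (r = 0.08) averaged under 2 RPKM and were not ranked.

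Around the pathway, most enzymes of lipid metabolism did not pass the unadjusted threshold. Of all features tested, 4.76% were called lower and 1.11% higher, and the counts in the lists below are to be set beside these shares. For lists of this size, 1 call is not read as a result about the list. Of 15 other enzymes of fatty acid synthesis, elongation and desaturation that were tested, 1 was called lower and none higher, with a median of -0.14. It was Elovl7, an elongase, at 2.76 ± 0.626 RPKM in Control and 2.00 ± 0.660 RPKM in HLU (SD, n = 8 each), with all 8 HLU mice below the control median (log2 difference -0.48, unadjusted p = 0.0378, exact permutation p = 0.0458). Of 13 regulators of lipogenic transcription, none was called. The pair with the lowest p were Mlx, a partner of the carbohydrate response factor ChREBP (-0.16), and Scap, the escort of SREBP (-0.22). Of 8 genes listed for NADPH supply, not all of which make NADPH themselves, 7 had differences below 0. Their median was -0.17, against -0.10 for all features. Me3, a mitochondrial malic enzyme, was called higher. It stood at 0.930 ± 0.496 RPKM in Control and 1.697 ± 0.806 RPKM in HLU (log2 difference 0.79, unadjusted p = 0.0310, exact permutation p = 0.0435), with 7 of 8 HLU mice above the control median.

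Downstream, of 11 other enzymes of glycerolipid synthesis 1 was called, Lpin2, a phosphatidate phosphatase. It was lower, at 7.42 ± 1.48 RPKM in Control and 5.45 ± 1.71 RPKM in HLU (log2 difference -0.47, unadjusted p = 0.0184, exact permutation p = 0.0253). Of 7 genes of fatty acid uptake and activation, Acsl3, an acyl-CoA synthetase of the endoplasmic reticulum and lipid droplets, was called higher (4.42 ± 0.685 against 5.53 ± 1.05 RPKM, log2 difference 0.31, exact permutation p = 0.0221). Of 10 genes of lipolysis and the lipid droplet, Pnpla3, a droplet protein and known target of SREBP1, was called higher (2.00 ± 0.881 against 3.49 ± 1.47 RPKM, log2 difference 0.76, exact permutation p = 0.0395). For each of the pair, 7 of 8 HLU mice exceeded the median of Control. Plin2, a coat protein of lipid droplets named here after its values were seen, had a difference of -0.26 (limma unadjusted p = 0.0438), just under 1.2-fold, with all 8 HLU mice below the control median.

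Among 5 targets of LXR, the oxysterol receptor that also switches on Srebf1 and Scd1, 1 was called lower and none higher, and the median of -0.06 was above that of all features (-0.10). It was Abcg1, a cholesterol exporter, at 3.64 ± 0.660 RPKM in Control and 2.61 ± 0.918 RPKM in HLU (log2 difference -0.52, unadjusted p = 0.0122, exact permutation p = 0.0152). None of 14 sterol synthesis genes driven by SREBP2 was called, with a median of -0.06. Fdft1, the squalene synthase, had a log2 difference of 0.15 (exact permutation p = 0.0402, above 0.05 with limma). Of 14 fatty acid oxidation genes 3 were listed and 2 tested, and neither was called. Cpt1a, which passes fatty acids to the mitochondria, had a log2 difference of -0.15. The genes called here had the adjusted p of Scd1, 0.744 (limma).

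**Figure D4:**
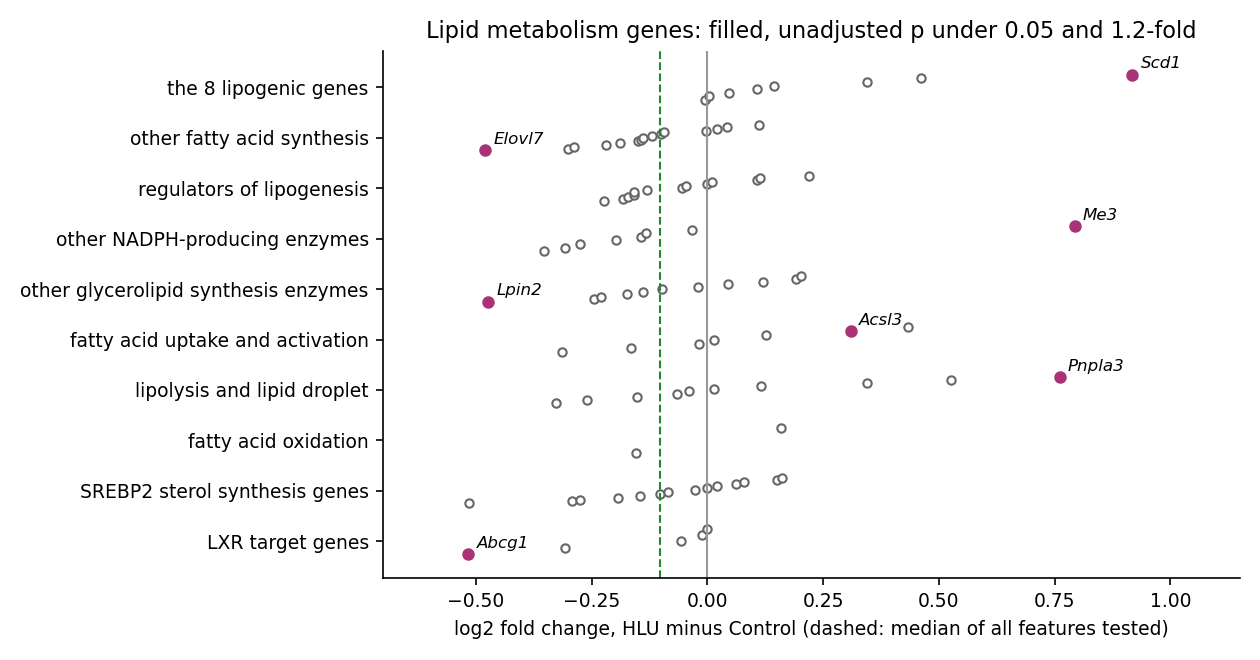
Log2 fold change, HLU minus Control, of every tested gene in the lipogenic group and in 9 other lists of lipid metabolism genes (one point per gene); filled points passed an unadjusted p under 0.05 and a 1.2-fold change, and the dashed line is the median of all features, -0.10. Scd1 lies farthest to the right, at 0.92, and each other list has at most 1 filled point.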

How the data were processed

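Per the labels and the study's methods, the authors extracted RNA from flushed cortical bone and made 1 TruSeq library per mouse. The submitters' processing notes name TopHat2, DESeq2 and the build mm9; annotation, counting tool and strand setting are not given in the sources used here. The authors deposited 1 table of RPKM values per mouse. The unit was judged from the values: dividing out gene length and library size gave whole reads for 16973 of 16973 features kept. Here, log2(RPKM + 0.1) was compared by limma 3.58.1 (R 4.3.3), with equal weights and a variance trend, over features averaging 0.5 RPKM or more, with Benjamini-Hochberg adjustment over all of them. Single values, ratios and scores were compared by two-sided exact permutation tests, and correlations by 100000 permutations within groups, run in Python (3.11.15; numpy 2.4.6; pandas 2.3.3; scipy 1.17.1). Correlations covered the 28 pairs of the 8 listed genes. Figures used matplotlib 3.10.9. The fits were tested on simulated data.

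The lipogenic genes and all lists were chosen with earlier results of these data known. Genes were named by rule: the lipogenic genes, genes of each list past the unadjusted p of 0.05 and 1.2-fold (or else the 2 of lowest p), and the 10 features most like Scd1. Some genes that the rule names are not reported here. Marker genes are named beyond the rule only beside the results they bear on. Promoter sequences come from RefSeq and gene overlaps from GENCODE M21, both on GRCm38, and no position in the files was used.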

Additional observations from a re-analysis of the deposited data

How the results depend on the processing

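The comparison was repeated under 13 alternatives and without each of the 16 mice in turn. The difference of Scd1 stayed above 0 in all 29 (adjusted p 0.303 to 0.976 with limma), and fell to an unadjusted p above 0.05 with the adipocyte score (0.52), with blood cell scores (0.64) and without the 2 smallest libraries (0.82, Control 2 and HLU 5). Leaving out single mice gave 0.77 to 1.17. The genes called then numbered 0, 3 and 0, and 0 to 1 over single mice. The log2 ratio of Scd1 to Scd2 was 0.91 with the replicate block (p = 0.0938, exact permutation of signs), 0.83 without the 2 smallest libraries, and 0.77 to 1.17 over single mice. Replicate numbers did not pair the mice (r of -0.17 to 0.51, and 1 of 8 controls was most like its own number). Under the replicate block, 199 features were called higher and 840 lower, and Scd1 kept 0.92 (limma, unadjusted p = 0.0287).

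Features called higher numbered 188, against 1295 with blood cell scores, 376 with median-of-ratios rescaling, 460 with quantile normalization, 106 at a minimum mean of 2 RPKM, 391 with no filter, 108 without the 2 smallest libraries and 117 to 363 over single mice (lowest without HLU 7, highest without HLU 2). Features called lower numbered 808, against 1637, 401 and 364 in the first 3 of these and 471 to 1385 over single mice (the same pair of mice). At the adjusted threshold, limma gave 17 features with blood cell scores, 1 with no filter, 1 with no variance trend and 0 to 1 over single mice, the 1 without HLU 2. Of the 6 pairs past the adjusted threshold, 3 passed it in HLU mice alone (those among Fasn, Acaca and Thrsp). In Control mice alone 4 pairs passed. There, Srebf1 had r = 0.90 with Thrsp and -0.80 with Scd2 (exact permutation p of 0.00203 and 0.00558), against 0.17 and 0.20 in HLU alone. The difference between the groups was not tested. With the adipocyte score removed from both genes, an alternative chosen after seeing the data, none of the 6 passed, and 3 other pairs did: Scd1 and Elovl6 (r = 0.76), Scd1 and Srebf1 (-0.81), and Elovl6 and Srebf1 (-0.73).

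Signs turned only among genes that were not called in the main fit. Scd2 was -0.078 with blood cell scores, -0.017 without the 2 smallest libraries and -0.049 to 0.054 over single mice. Acly was 0.085 with blood cell scores, 0.081 with median-of-ratios rescaling, 0.12 with quantile normalization, 0.059 with voom on recovered reads and -0.047 to 0.054 over single mice. Fasn (-0.17), Acaca (-0.033) and Srebf1 (-0.27) turned with the adipocyte score, Elovl6 with blood cell scores (-0.14), and Srebf1 with array weights (-0.020) and over single mice (-0.10 to 0.26). The causes were not tested. A minimum mean of 2 RPKM removed Acaca and Srebf1. With 64 to 490 reads per library on Srebf1, its counting error was small beside the spread between mice. Intervals of Scd2 and Acly leave differences beyond about 0.24 outside, and those of Fasn and Srebf1 do not exclude 0.80.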

Other observations

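Some markers of other cell types in the bone also passed the unadjusted threshold between the groups, and none passed the adjusted one. Called lower in HLU were 3 of 11 erythroid and 1 of 8 B lymphocyte markers, against 4.76% of all features (1.11% were called higher). The erythroid and B lymphocyte scores differed by -0.58 and -0.42 (exact permutation p of 0.0657 and 0.149). Hbb-b1, a beta-globin gene, stood at 1271 ± 638 RPKM in Control and 734 ± 306 RPKM in HLU (SD, n = 8 each), a log2 difference of -0.77 (exact permutation p = 0.0191, limma adjusted p = 0.744). Hbb-b2 (-0.70), the erythroid factor Klf1 (-0.69) and Vpreb3, a gene of B cell precursors (-0.81), were also called lower at an unadjusted p under 0.05 with limma (exact permutation p of 0.0496, 0.0511 and 0.0314). Mepe, a matrix protein of osteocytes, was higher, at 140 ± 75.1 RPKM in Control and 226 ± 78.5 RPKM in HLU (log2 difference 0.79, exact permutation p = 0.0392), with 7 of 8 HLU mice above the control median. All 6 osteocyte markers had differences above 0, with a median of 0.49, although the osteocyte score missed the threshold (0.47, exact permutation p = 0.0696). None of 8 granulocyte, 9 macrophage, 8 osteoblast or 6 endothelial markers was called. Brown adipocyte genes were low, at a summed 3.55 to 6.53 RPKM in Control and 4.10 to 7.33 RPKM in HLU, and none of the 3 tested was called. In 36 groups of values tested, no mouse stood apart by Dixon's criterion.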
